A study of Mus musculus with 16 samples.

Results

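The genes described here are the nuclear genes of oxidative phosphorylation on a mouse Clariom S array. They were chosen by name: every gene whose annotated symbol begins with Nduf, Uqcr, Atp5 or Cox4 to Cox8, together with Sdha, Sdhb, Sdhc and Sdhd, with pseudogenes left out and the probe set of highest mean kept for each gene. The rule found 93 genes among 22206 probe sets tested, of which 19505 carried distinct gene names. By name they were 38 genes listed with the complex I subunits (among them Ndufa4 and its paralog Ndufa4l2, placed by symbol), 8 complex I assembly factors (names beginning with Ndufaf), 4 complex II genes, 8 of complex III, 18 of complex IV and 17 of complex V. The rule used names, and no measured value beyond the mean of a probe set. Earlier results of these data were known when the set was chosen.

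The animals were 24 S100a5-tauGFP mice of both sexes, aged 7 to 12 weeks, in which the promoter of S100a5 drives a green fluorescent tau fusion protein. The S100a5 gene is transcribed in olfactory sensory neurons that are active, so the GFP+ and GFP- fractions are defined by the activity of a reporter and not by a cell type. Each mouse stayed alone in a chamber for 40 h under clean air at 3.1 L/min, and from 26 h it received pulses of 10 s every 20 min of either filtered air (vehicle) or 2-hexanone (odor). Dissected olfactory mucosa was dissociated and sorted into GFP+ and GFP- cells, in pools of 3 mice. This gave 4 groups of 4 arrays: vehicle GFP-, vehicle GFP+, odor GFP- and odor GFP+. The GFP+ and GFP- samples of a pool come from the same 3 mice, and the replicates within a group are separate pools. All mice carry the reporter, and every comparison is within this single line.

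Oxidative phosphorylation takes place at the inner mitochondrial membrane. Complexes I and II pass electrons from NADH and succinate to ubiquinone, complex III passes them to cytochrome c and complex IV to oxygen, while complexes I, III and IV move protons that complex V, the ATP synthase, uses to make ATP. Most of the subunits are encoded in the nucleus, and several complex IV subunits have forms used mainly in heart, muscle, testis or other tissues. Olfactory sensory neurons spend ATP on transduction in their cilia and on the restoration of ion gradients.

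The values are log2 signals, compared within a probe set across arrays and not between genes. On every one of the 16 arrays, 75 of the 93 genes were above that array's background floor, the brightest of 23 antigenomic background bins. A further 8 were above it on some arrays: Cox7a1 and Ndufaf8 on 15, Ndufb10 on 14, Ndufaf1 on 13, Atp5e on 9, Ndufb8 and Ndufaf6 on 8 each and Ndufaf2 on 2. The other 10 were above it on no array: Atp5k, Cox4i2, Cox6a2, Cox6b2, Cox7b2, Cox8b, Cox8c, Ndufa4l2, Ndufa7 and Uqcr11. For these 10 the array gives no measure of expression, and their differences are given without a fold. The median within-group SD was 0.25 over the 93 genes, against 0.35 over all probe sets.

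Across the whole series, S100a5 was higher in GFP+ cells, 2.60-fold in vehicle (limma, adjusted p = 0.000514) and 3.06-fold in odor (adjusted p = 9.83e-05), and in 8 of 8 pools. Omp, which marks mature sensory neurons of the olfactory epithelium, differed between fractions by 0.01 (log2) in vehicle and 0.09 in odor (adjusted p = 0.988 and 0.733), at mean levels of 19.36 to 19.45, near the top of the arrays' range. Whole-array medians lay between 5.70 and 5.76 for GFP+ samples and between 6.06 and 6.12 for GFP- samples, and the fit used the values as deposited. The 4 arrays of the replicate 1 pools stood apart from the others, with scores of -43 to -33.7 on the first component of within-group variation (21.6% of it) against -1.84 to 36.4 elsewhere. Results without these pools are given beside the counts they touch.

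Genes of oxidative phosphorylation differed modestly between the sorted fractions, mostly toward higher signal in GFP+ cells. In vehicle mice, Ndufa1 and Ndufa5 of complex I and Cox7a1, Cox7b and Cox5a of complex IV were higher in GFP+ cells, by 1.43- to 1.67-fold (limma over all probe sets, Benjamini-Hochberg adjusted p under 0.05, n = 4 pools). In odor mice Ndufa1, Ndufb7, Ndufaf5, Sdhc and Cox7a1 were higher, by up to 1.76-fold. In each treatment 1 gene, Cox6b2, was lower, at signals under the floor on all arrays. So 5 of 93 genes were called higher in vehicle, 5.38% against 5.83% of all probe sets, and 1 lower, 1.08% against 9.86%. In odor the shares were again 5.38% and 1.08%, against 5.29% and 9.56% of all probe sets. The share called higher was thus near the background in both treatments.

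The difference was positive for 80 of 93 genes in vehicle (86%, against 64.6% of all probe sets) and for 79 in odor, and 74 genes were positive and 8 negative in both. Its median over the 93 genes was 0.25 in vehicle and 0.23 in odor, where the median over all probe sets was 0.14 in both. Of the 75 genes above the floor on every array, 4 were higher in vehicle (5.33%, against 8.04% of such probe sets) and 0 lower (5.76%), and 4 were higher in odor (5.33%, against 7.68%) and 0 lower (5.44%). Over these 75 genes the medians were 0.25 and 0.21, against 0.15 and 0.17 for the probe sets that met the same condition. All 4 GFP+ arrays exceeded all 4 GFP- arrays for 17 genes in vehicle (18.3%, against 9.01% of all probe sets) and 14 in odor (15.1%, against 9.4%). The reverse held for 0 genes in vehicle (10% of all probe sets) and for 2 in odor, Cox6b2 and Cox7a2l (2.15%, against 10.6%). Shares without overlap were not taken for probe sets above the floor alone.

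**Figure D1:**
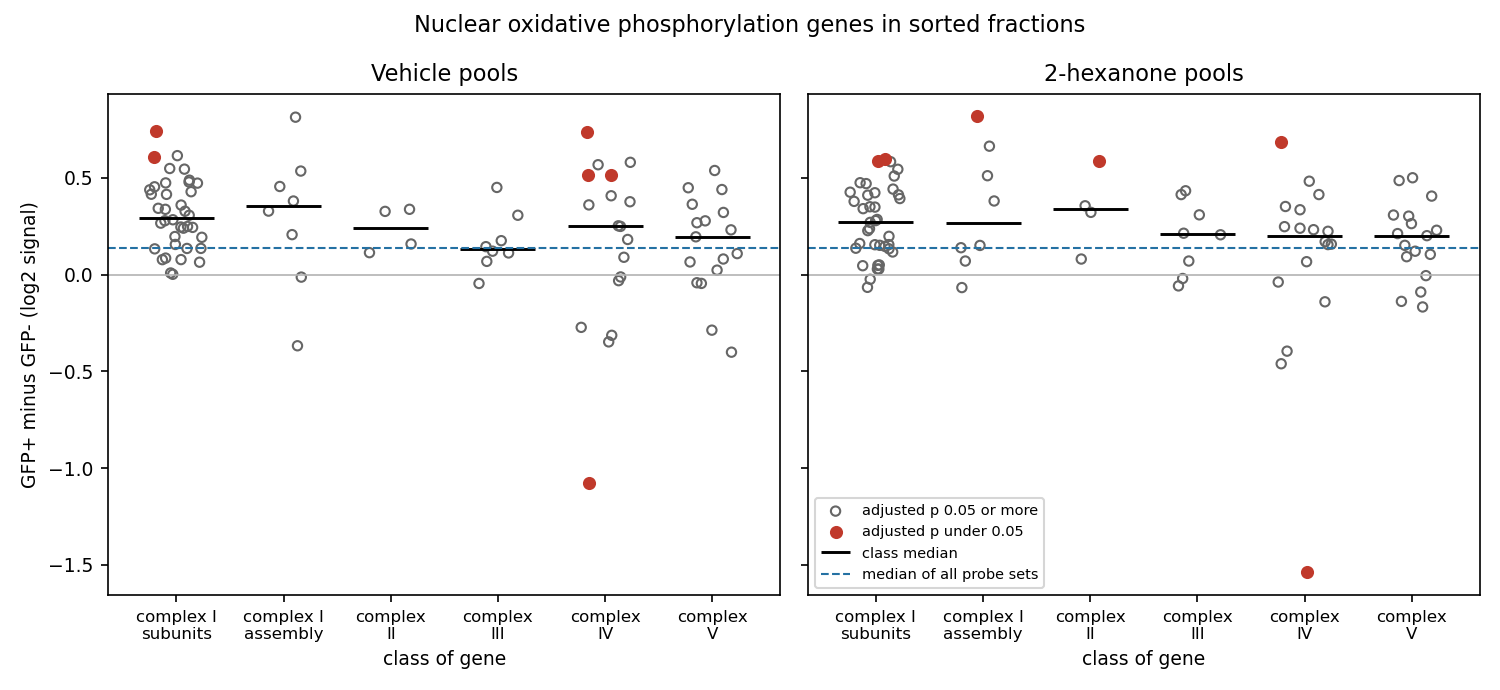
Differences between GFP+ and GFP- cells (log2 signal, vertical axis) for the 93 genes by class, in vehicle and in odor; each point is 1 gene, red points have a limma adjusted p under 0.05, short lines are class medians and the dashed line is the median of all probe sets. Most points lie above 0 in both panels, and the lowest is Cox6b2, at -1.08 in vehicle and -1.54 in odor.

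Counts of calls in a single treatment depended on the pools and on the scaling. With the pool as a random block, 10 genes were higher in vehicle (background 8.39%) and 8 in odor (7.81%), and Cox6b2 was lower in both. With each array centred on its own median, which moves the all-probe-set median from 0.14 up to 0.50 in vehicle and 0.49 in odor, 64 genes were higher and 0 lower in vehicle and 61 higher and 1 lower in odor, against 40.5% and 38.4% of all probe sets called higher. The median of the 93 genes exceeded that of all probe sets by 0.11 in vehicle and 0.09 in odor, which centring cannot alter, and by 0.10 and 0.06 with quantile normalization over all arrays. Leaving out vehicle pool 1, 2, 3 or 4 gave 2, 3, 0 or 1 genes higher in vehicle (5.01%, 3.63%, 3.99% or 3.34% of all probe sets). Without vehicle pool 1 they were Ndufa5 and Cox8c, the latter a new call under the floor. Without vehicle pool 4 the gene was Atp5e, also a new call. None of the 6 calls in vehicle was thus kept without vehicle pool 3 or without vehicle pool 4. Leaving out odor pool 2, 3 or 4 left 3 genes higher in vehicle each (5.17%, 5.58% or 5.39%). For the odor count, leaving out odor pool 1, 2, 3 or 4 left 2, 1, 2 or 0 (3.62%, 3.27%, 3.6% or 3.16%).

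Without both replicate 1 pools, 4 genes were higher in vehicle (5.03% of all probe sets) and 2 in odor (3.91%), with Cox6b2 lower in both. In vehicle 3 of the 6 calls were kept, with Ndufa1, Cox7b and Cox7a1 missing the threshold (adjusted p = 0.0637, 0.105 and 0.151). In odor 3 of 6 were kept, with Ndufa1, Cox7a1 and Ndufb7 missing it (adjusted p = 0.0927, 0.136 and 0.182). The median of the 93 genes was then 0.23 in vehicle against 0.14 over all probe sets, and 0.16 in odor against 0.13, an excess of 0.03 where all 8 pools gave 0.09. Leaving out odor pool 1 alone gave the same odor medians.

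Complex I takes electrons from NADH, and all 38 genes listed with its subunits had a positive difference in vehicle (36 in odor), with medians of 0.29 and 0.27. The smallest of them in vehicle was 0.0010, and 64.6% of all probe sets were positive in each treatment. Ndufa7 and Ndufa4l2, both among the 38, were above the floor on no array. Ndufa1 encodes a small accessory subunit of the membrane arm. In vehicle it measured 9.45, 9.57, 9.19 and 9.57 in GFP- and 10.02, 9.80, 10.19 and 10.20 in GFP+ pools 1 to 4. In odor its values were 9.02, 9.30, 9.52 and 9.38 in GFP- and 9.69, 9.73, 10.03 and 10.16 in GFP+ pools. The fractions did not overlap in either treatment, and the GFP+ signal was 1.52-fold higher in vehicle (0.61 ± 0.18, log2 difference and SE, adjusted p = 0.0235) and 1.51-fold in odor (0.60, adjusted p = 0.0264). Neither call held without both replicate 1 pools, while the call over both treatments together did (adjusted p = 0.00879).

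Ndufa5 encodes an accessory subunit of the matrix arm. In vehicle it measured 10.01, 9.54, 9.46 and 9.37 in GFP- and 10.83, 10.01, 10.19 and 10.33 in GFP+ pools, the lowest GFP+ sample just above the highest GFP- sample. In odor the GFP- pools gave 9.70, 9.65, 10.03 and 10.39 and the GFP+ pools 10.44, 10.29, 10.82 and 10.55, with the GFP- sample of pool 4 above the GFP+ sample of pool 2. The difference was 0.74 ± 0.22 in vehicle (1.67-fold, adjusted p = 0.0265) and 0.58 in odor, which missed the threshold (adjusted p = 0.0894) and reached it once pools were treated as a random block (adjusted p = 0.0451).

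Ndufb7 encodes an accessory subunit of the membrane arm. The odor pools gave 7.31, 7.79, 8.02 and 7.45 in GFP- and 8.13, 8.23, 8.28 and 8.27 in GFP+ pools, all GFP+ samples above all GFP- samples (1.50-fold, 0.59, adjusted p = 0.0488). In vehicle the GFP- values were 7.82, 7.84, 7.57 and 8.19 and the GFP+ values 8.06, 8.11, 8.30 and 8.60, overlapping through pool 4 (0.41 ± 0.19, adjusted p = 0.171). A pass in odor and not in vehicle does not show that the treatments differ, and the change between treatments did not pass for this gene.

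The assembly factors build complex I without remaining in it. Ndufaf5 encodes an enzyme that modifies a core subunit during assembly. In odor it measured 7.21, 6.93, 7.45 and 6.81 in GFP- and 7.70, 7.90, 7.98 and 8.08 in GFP+ pools, with a tight, higher GFP+ group (1.76-fold, 0.82, adjusted p = 0.0178). In vehicle it measured 7.98, 6.90, 7.26 and 7.34 in GFP- and 8.15, 7.64, 7.47 and 7.74 in GFP+ pools, the high GFP- sample of pool 1 lying among the GFP+ values (0.38 ± 0.22, adjusted p = 0.295). Ndufaf1, an early assembly factor, differed by 0.81 in vehicle and 0.66 in odor, which missed the threshold (adjusted p = 0.111 and 0.210) and passed with the pool as a fixed block (adjusted p = 0.0163 and 0.0446). In vehicle it also passed without both replicate 1 pools (0.93, adjusted p = 0.0280). Its GFP- signal was above the floor in 3 of 4 vehicle and 2 of 4 odor samples.

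Complex II, succinate dehydrogenase, is also an enzyme of the citric acid cycle and is encoded wholly in the nucleus. All 4 of its genes had positive differences in both treatments. Sdhc, a membrane anchor, measured 10.37, 9.99, 10.00 and 10.00 in odor GFP- pools and 10.71, 10.67, 10.54 and 10.76 in odor GFP+ pools, without overlap (1.50-fold, 0.58, adjusted p = 0.0256). In vehicle it measured 10.47, 10.17, 10.24 and 9.89 in GFP- and 10.73, 10.41, 10.31 and 10.66 in GFP+ pools, with the GFP- sample of pool 1 inside the GFP+ range (0.34 ± 0.17, adjusted p = 0.212). The flavoprotein gene Sdha, the iron-sulphur gene Sdhb and the second anchor Sdhd differed by 0.16, 0.11 and 0.33 in vehicle and by 0.32, 0.35 and 0.08 in odor, and none passed the test.

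Complex III had no gene called in either treatment by limma, and 0 of its 8 genes reached an unadjusted p under 0.05. Its medians were 0.13 in vehicle and 0.21 in odor. Averaged over the 8 pools, the differences ran from 0.0045 for Uqcrc1, a core subunit, through 0.11 for Uqcrfs1, the Rieske iron-sulphur protein, to 0.43 for Uqcr10, a small subunit (adjusted p = 0.231). Uqcrc2, the other core subunit, differed by 0.37 (adjusted p = 0.229) and passed with the pool as a fixed block (adjusted p = 0.0486). Uqcrq, another small subunit, was positive in each of the 8 pools at 0.21 (adjusted p = 0.174).

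Complex IV, cytochrome c oxidase, held both the most calls in vehicle and the gene of opposite direction. Cox5a, a subunit present in all tissues, measured 12.24, 12.20, 12.13 and 12.04 in vehicle GFP- and 12.59, 12.55, 12.65 and 12.88 in vehicle GFP+ pools (1.43-fold, 0.51 ± 0.17, adjusted p = 0.0450, or 0.0759 with the pool as a fixed block). The odor pools gave 11.95, 12.64, 12.43 and 12.45 in GFP- and 12.69, 12.56, 12.70 and 12.48 in GFP+ pools. The vehicle fractions were apart and the odor fractions overlapped, at 0.24 (adjusted p = 0.395).

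Cox7b encodes a small subunit. It measured 12.04, 12.18, 12.28 and 12.34 in vehicle GFP- and 12.76, 12.79, 12.71 and 12.63 in vehicle GFP+ pools, with no overlap (1.43-fold, 0.51 ± 0.17, adjusted p = 0.0425). In odor the values were 12.00, 12.31, 12.28 and 12.47 in GFP- and 12.31, 12.76, 12.85 and 12.79 in GFP+ pools. There the GFP+ sample of pool 1 lay within the GFP- range and the test was missed (0.41, adjusted p = 0.112).

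Cox7a1 is the form of subunit 7a known from heart and skeletal muscle. In vehicle it measured 6.54, 7.29, 6.89 and 6.72 in GFP- and 7.72, 7.57, 7.48 and 7.62 in GFP+ pools. The odor values were 6.97, 7.45, 7.02 and 6.88 in GFP- and 7.80, 7.62, 8.24 and 7.38 in GFP+ pools. The GFP+ samples were all higher in vehicle and overlapped through pools 2 and 4 in odor, and the gene passed in both (1.67-fold, adjusted p = 0.0195, and 1.61-fold, adjusted p = 0.0325). Its signal was low, with 1 vehicle GFP- sample under the floor. Neither call held without both replicate 1 pools, while the call over both treatments together did (adjusted p = 0.0248).

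Cox6b2 is the form of subunit 6b known from testis, and all its values lay under the floor. In vehicle they were 3.90, 5.02, 4.05 and 5.50 in GFP- and 3.48, 3.97, 3.27 and 3.44 in GFP+ pools, and in odor 4.19, 4.92, 4.26 and 5.62 against 3.46, 3.11, 3.36 and 2.90. The differences of -1.08 ± 0.34 (adjusted p = 0.0409) and -1.54 (adjusted p = 0.00381) passed the test but are differences between signals in the range of the background probes.

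**Figure D2:**
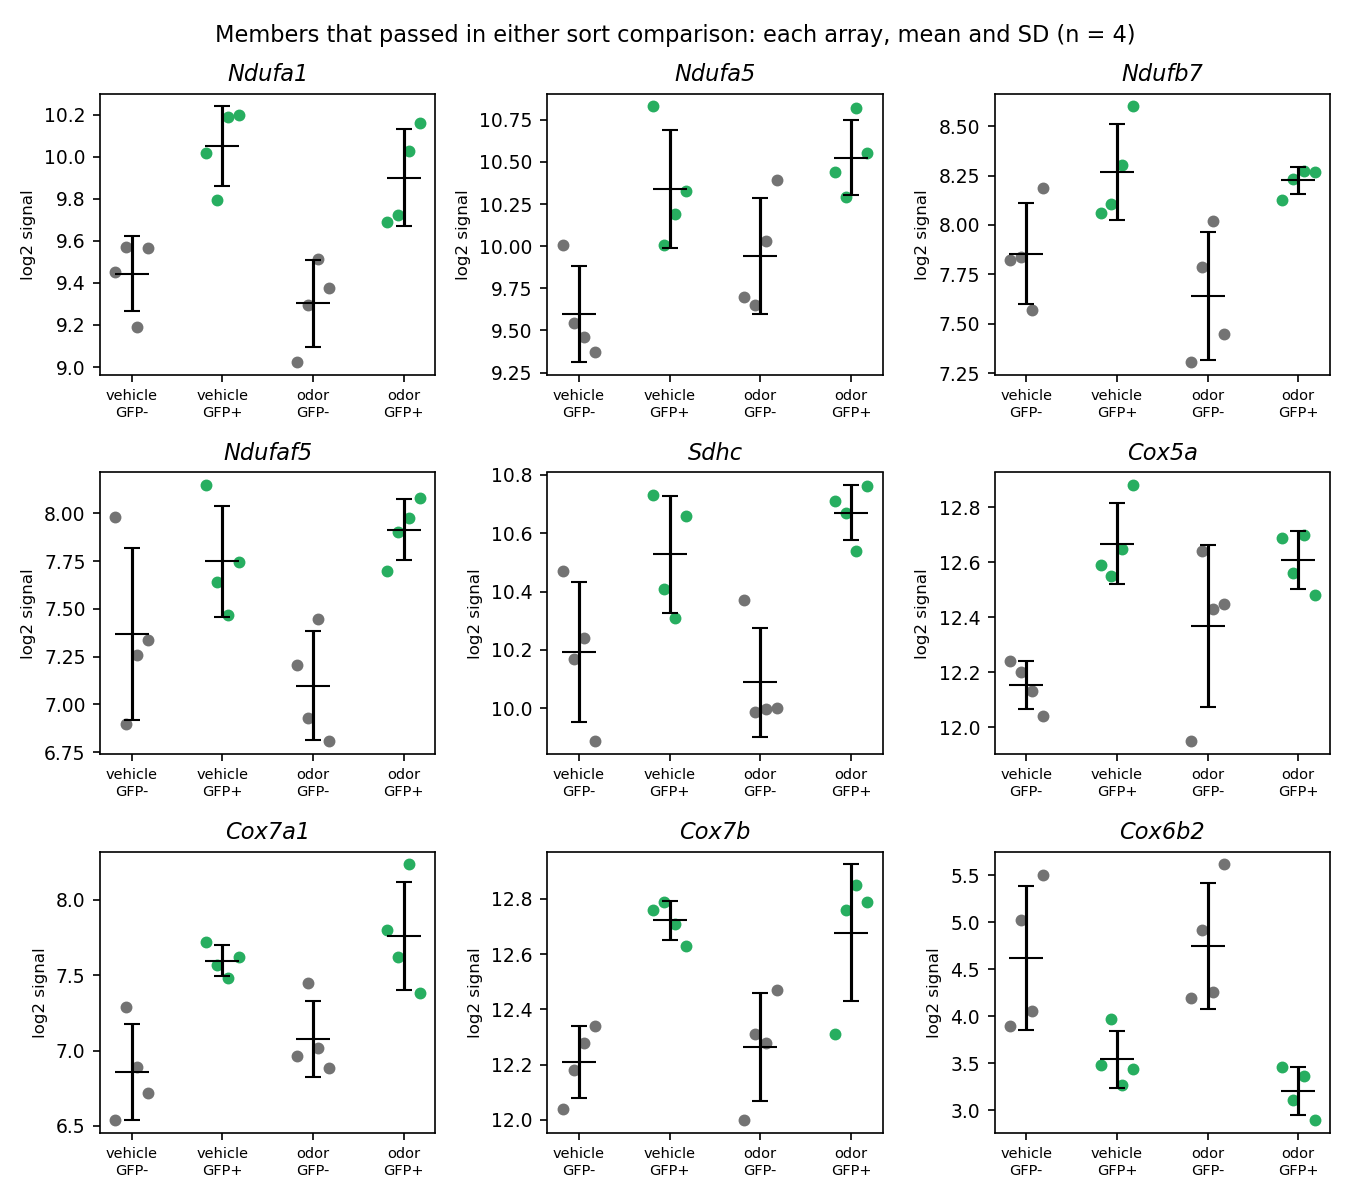
Log2 signal (vertical axis) of the 9 genes called in vehicle or in odor, in each of the 4 groups; points are arrays (n = 4 a group), bars are means with SD. The 8 genes called higher sit above in the GFP+ groups, and Cox6b2 sits below at signals that are under the floor on all 16 arrays.

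Averaging the vehicle and odor differences, a contrast added after the values were seen, sets the GFP+ against the GFP- samples over all 8 pools. By this contrast 20 of the 93 genes were higher in GFP+ cells (21.5%, against 13.4% of all probe sets) and 2 were lower (2.15%, against 13%), with a median difference of 0.24 against 0.15 over all probe sets. Among the 75 genes above the floor on every array, 15 were higher (20%) and 1 lower (1.33%), where 19.6% and 8.77% of all probe sets above the floor were called. Read against probe sets of measurable signal, the share called higher was therefore at the background, and the share called lower was below it. The difference was positive in each of the 8 pools for 21 genes (22.6%, against 10.9% of all probe sets) and negative in each for 2 (2.15%, against 10.9%). These shares were not taken for probe sets above the floor alone, so they have no background of measurable signal. Positive differences in 6 or more pools were found for 63 genes (67.7%), and negative ones in 6 or more for 7. For these counts no share over all probe sets was taken. The mean difference over the 8 pools was positive for 68% of all probe sets.

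The calls over 8 pools were 10 complex I subunits, 2 assembly factors, Sdhc, 5 complex IV genes higher and 2 lower, and 2 complex V genes. After Ndufa5 (0.66 ± 0.16, adjusted p = 0.00361), Ndufa1 (0.60 ± 0.12, adjusted p = 0.00119) and Ndufb7 (0.50 ± 0.14, adjusted p = 0.0106), the complex I subunits higher in GFP+ cells were Ndufb2 (0.54), Ndufv3 (0.48), Ndufs1 (0.46), Ndufb8 (0.44), Ndufb6 (0.43), Ndufa9 (0.42) and Ndufc2 (0.41). Ndufs1 is a core iron-sulphur subunit of the electron-input module, and Ndufv3 is an accessory subunit of the same module. The others are accessory subunits. Ndufb8 was above the floor on 8 of the 16 arrays.

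Ndufc2, a membrane-arm subunit, showed a small and regular difference. It read 14.19, 14.15, 14.19 and 14.03 in vehicle GFP- and 14.68, 14.61, 14.42 and 14.55 in vehicle GFP+ pools. In the odor pools the values were 14.14, 14.21, 14.28 and 13.96 against 14.57, 14.48, 14.68 and 14.42. The fractions were apart in both treatments, yet neither treatment alone passed (adjusted p = 0.0550 and 0.0834), unless the pool was a random block (adjusted p = 0.0287 and 0.0460). The 8 pools together passed (0.41 ± 0.10, adjusted p = 0.00602).

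Ndufs1 varied more between pools. Its vehicle values were 12.33, 12.17, 12.04 and 12.22 in GFP- and 13.13, 12.64, 11.99 and 12.67 in GFP+ samples, so that pool 3 ran the other way. The odor values were 12.39, 12.02, 12.25 and 11.96 against 12.96, 12.50, 12.58 and 12.61, without overlap. Over the 8 pools it was higher in 7 (0.46 ± 0.15, adjusted p = 0.0280), a call lost without both replicate 1 pools (adjusted p = 0.0786). Ndufb2, a small membrane-arm subunit, was also higher in 7 pools (adjusted p = 0.0302), with odor pool 3 level at 8.71 in GFP- and 8.69 in GFP+ cells and an unusually high vehicle GFP- sample of 9.58 in pool 1.

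Among the assembly factors Ndufaf1 (0.74 ± 0.23, adjusted p = 0.0252) and Ndufaf5 (0.60 ± 0.16, adjusted p = 0.00909) were higher. In complex II only Sdhc passed (0.46 ± 0.12, adjusted p = 0.00814). In complex IV, Cox7a1 (0.71 ± 0.15, adjusted p = 0.00122), Cox7b (0.46), Cox8c (0.45, under the floor), Cox7a2 (0.43) and Cox5a (0.38) were higher, and Cox6b2 (-1.31 ± 0.24, adjusted p = 0.000465) and Cox7a2l (-0.35 ± 0.12, adjusted p = 0.0428) were lower. In complex V, whose median difference was 0.19, Atp5mpl (0.42 ± 0.12, adjusted p = 0.0109) and Atp5k (0.52, under the floor), both small membrane subunits, were higher.

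Atp5mpl, also called the 6.8-kDa proteolipid, measured 13.89, 14.18, 14.00 and 13.96 in vehicle GFP- pools and 14.65, 14.28, 14.52 and 14.33 in vehicle GFP+ pools. In odor the values were 13.93, 14.00, 14.26 and 14.31 against 14.37, 14.58, 14.41 and 14.76, and in both treatments the fractions did not overlap. Atp5b, the catalytic beta subunit, was also positive in all 8 pools, with means of 17.28 and 17.48 in vehicle GFP- and GFP+ samples, and its difference of 0.19 did not pass (adjusted p = 0.392).

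The other genes of complex V did not pass. The epsilon subunit gene Atp5e (0.42, adjusted p = 0.0748, or 0.0481 with the pool as a random block), Atp5md (0.37, adjusted p = 0.106) and Atp5j (0.29, adjusted p = 0.0991) came nearest to the threshold. The catalytic core gene Atp5a1, the alpha subunit, differed by 0.08, the central stalk genes Atp5c1 and Atp5d by -0.07 and -0.15, and the peripheral stalk genes Atp5h, Atp5o and Atp5pb by 0.05, 0.20 and 0.13. Atp5o was positive in all 8 pools. Among the assembly factors that were not called, Ndufaf7 was positive in all 8 pools (0.30, adjusted p = 0.0721) and passed with the pool as a random or as a fixed block, over the 8 pools (adjusted p = 0.0381 and 0.0452) and in vehicle (0.0375 and 0.0475, both adjusted p), while Ndufaf3 and Ndufaf8 were positive in 2 (-0.04 and -0.15).

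Cox7a2, the common form of subunit 7a, was higher in each pool. It read 10.13, 9.51, 9.50 and 9.68 in vehicle GFP- and 10.57, 10.00, 9.88 and 9.87 in vehicle GFP+ pools. In odor the values were 9.94, 9.82, 9.83 and 9.45 against 10.44, 10.32, 9.99 and 10.22. Pool 1 was high in both vehicle fractions, so the vehicle groups overlapped although each pool kept the direction, and the odor groups did not overlap (0.43 over the 8 pools, adjusted p = 0.0342).

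Cox7a2l, a relative of subunit 7a that takes part in joining complexes III and IV, was the 1 gene above the floor on every array that was called lower in GFP+ cells. It measured 10.94, 10.92, 10.87 and 11.16 in vehicle GFP- and 10.89, 10.65, 10.34 and 10.75 in vehicle GFP+ pools. The odor values were 10.86, 10.92, 10.99 and 11.09 in GFP- and 10.85, 10.76, 10.27 and 10.38 in GFP+ pools. Each GFP+ sample was below the GFP- sample of its pool. The call was lost with the pool as a fixed block (adjusted p = 0.0555), and the direction turned when arrays were centred on their medians (0.0018).

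With the pool as a random block, 29 genes were higher over the 8 pools and 2 lower, against 17.6% and 14% of all probe sets. With centred arrays 81 were higher and 1 lower, where 65% of all probe sets were called higher. Leaving out vehicle pool 2 or 4 gave 12 genes higher (10.3% and 9.91% of all probe sets). Leaving out odor pool 4 gave 13 (9.98%), and leaving out both replicate 1 pools gave 16 (10.5%). Of the 22 calls in either direction, these settings kept 12, 12, 13 and 17. Those lost without both replicate 1 pools were Ndufs1, Cox5a, Atp5mpl, Atp5k and Ndufb8 (adjusted p = 0.0786, 0.0868, 0.0658, 0.0645 and 0.336). With vehicle pool 2, 3 or 4 or odor pool 2, 3 or 4 left out, 1 gene was lower.

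In the vehicle pools the median difference over the 93 genes was 0.26, 0.22, 0.21 and 0.29, where all probe sets gave 0.09, 0.10, 0.09 and 0.14. In the odor pools it was 0.28, 0.19, 0.21 and 0.18, against 0.13, 0.11, 0.10 and 0.09. In each pool the median of the 93 genes was above that of all probe sets. Between 64 and 73 of the 93 genes were higher in the GFP+ sample (68.8% to 78.5%, against 56.3% to 60.4% of all probe sets). Each pool uses its own mice but the genes share the same arrays, so the genes are not independent replicates. Class medians spread more, the complex II median over 4 genes running from 0.08 in vehicle pool 1 to 0.50 in vehicle pool 4.

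**Figure D3:**
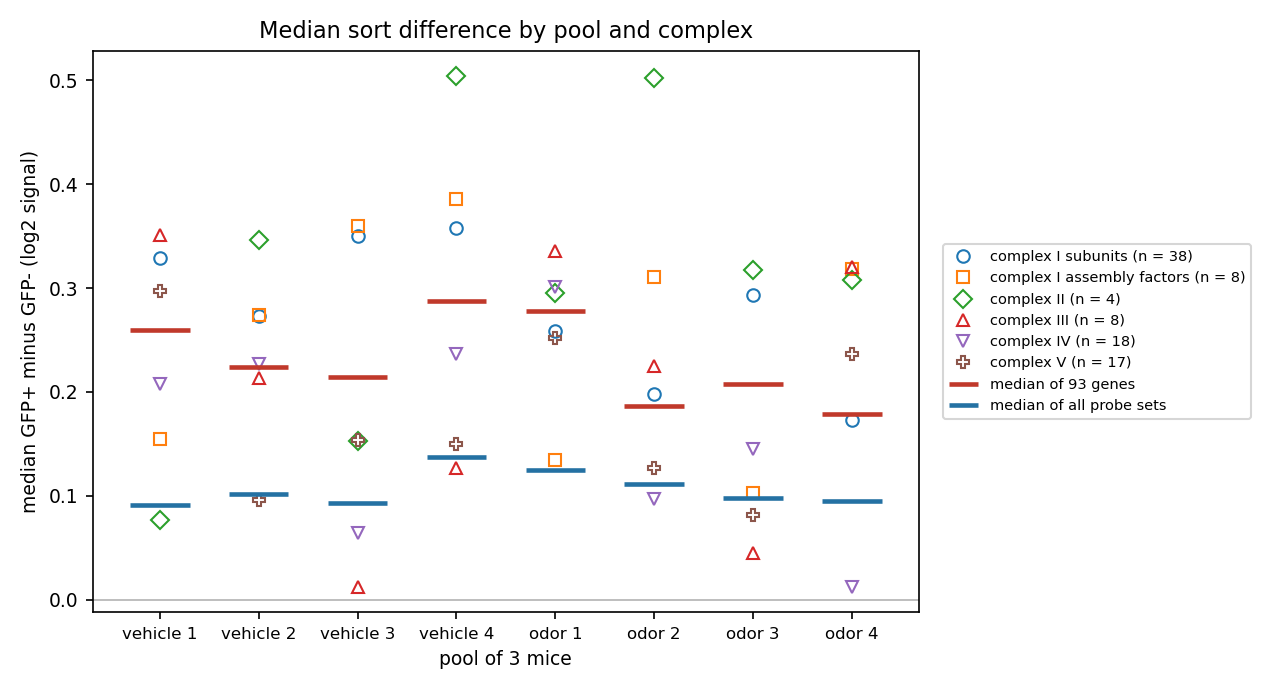
Median difference between GFP+ and GFP- cells (log2 signal, vertical axis) in each of the 8 pools, for each class, for the 93 genes together and for all probe sets. The median of the 93 genes ran from 0.18 to 0.29 and lay above that of all probe sets in every pool.

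Where subunits exist in several forms, the common form and the tissue form were compared over the 8 pools. Of subunit 4, Cox4i1, the common form, differed by 0.28 (adjusted p = 0.134) and Cox4i2, the form known from lung, was under the floor. Of subunit 6a, Cox6a1 differed by 0.07 (adjusted p = 0.708) and Cox6a2, the muscle form, was under the floor. Of subunit 6b, Cox6b1 differed by 0.27 (adjusted p = 0.117) beside the low signals of Cox6b2. Of subunit 7a, the muscle form Cox7a1 and the common form Cox7a2 were higher in GFP+ cells and Cox7a2l was lower. Cox7b was higher, with its paralog Cox7b2 under the floor. Of subunit 8, Cox8a differed by -0.03 and Cox8b was under the floor, as was Cox8c, which was called higher there.

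Ndufa4, named with complex I but known as a subunit of complex IV, was positive in 8 of 8 pools at 0.25 and missed the threshold (adjusted p = 0.102), while its paralog Ndufa4l2 was under the floor. The 3 genes for the same membrane ring subunit of complex V differed by -0.11 (Atp5g1), -0.21 (Atp5g2, adjusted p = 0.230) and 0.19 (Atp5g3), and none passed. Cox4i2, Cox6a2, Cox6b2, Cox7b2, Cox8b, Cox8c and Ndufa4l2 were thus above the floor on no array, while Cox7a1 was above it on 15.

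The promoters of these genes are known for sites of the factors NRF1 and GABP, an ETS protein, and windows from 250 bases before to 50 after the annotated start were read for them. RefSeq windows (GRCm38.p6) were matched by gene ID for 77 of the 93 genes, as 82 windows. On either strand, the NRF1 letters CGCATGCG stood in the windows of 11 of the 77 genes (14.3%, against 2.07% of 27025 genes), or of 7 where a G before and a C after were also required (9.09%, against 1.07%), and the ETS letters CCGGAAG in those of 19 (24.7%, against 9.93%). The YY1 letters AAGATGGC stood in 11 (14.3%, against 3.19%) and the ERR letters TCAAGGTCA in 2 (2.6%, against 0.466%), and no NRF1 and ETS match shared a base. The windows of these genes were richer in G and C, at a median of 58% against 52.7%. At least 1 of the 4 motifs was found for 7 of the 18 genes with a window that passed the test over the 8 pools (38.9%) and for 28 of the 59 others (47.5%). A match of letters is a description and not a measured site.

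The 120 bases before the start are shown for 5 genes called over the 8 pools, 5′ to 3′ on the strand of the gene, with matched motifs in capitals, to set promoters with a match beside promoters without one.
Atp5k, chr5:108434400-108434519, minus strand: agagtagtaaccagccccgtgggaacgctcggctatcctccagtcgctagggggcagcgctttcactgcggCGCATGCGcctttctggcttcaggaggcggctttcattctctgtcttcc
Ndufaf1, chr2:119662835-119662954, minus strand: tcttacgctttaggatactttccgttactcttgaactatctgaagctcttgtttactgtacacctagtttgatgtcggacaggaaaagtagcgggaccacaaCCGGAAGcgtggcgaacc
Ndufb7, chr8:83566638-83566757, plus strand: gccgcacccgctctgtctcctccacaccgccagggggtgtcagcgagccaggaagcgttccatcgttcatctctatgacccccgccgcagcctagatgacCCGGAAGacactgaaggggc
Cox7a1, chr7:30184051-30184170, plus strand: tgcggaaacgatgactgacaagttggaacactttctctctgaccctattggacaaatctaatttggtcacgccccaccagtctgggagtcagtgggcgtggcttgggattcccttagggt
Ndufa1, chrX:37191239-37191358, minus strand: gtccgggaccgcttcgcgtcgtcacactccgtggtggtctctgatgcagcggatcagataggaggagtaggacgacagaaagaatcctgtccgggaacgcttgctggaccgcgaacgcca
The Atp5k stretch holds the NRF1 letters, those of Ndufaf1 and Ndufb7 hold the ETS letters close to the start, and those of Cox7a1 and Ndufa1, genes higher in GFP+ cells in both treatments, hold none of the 4 motifs. Atp5k itself was above the floor on no array, and its call was lost without both replicate 1 pools.

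Exposure to 2-hexanone was the second comparison the design allows. No gene of the set was called in GFP+ cells, in GFP- cells or in the change of the sort difference (limma, adjusted p under 0.05), where 0.00901%, 0% and 0.00901% of all probe sets were called higher and 0% lower in each. At an unadjusted p under 0.05, 0 genes were higher and 2 lower in GFP+ cells, 0 higher and 2 lower in GFP- cells, and 0 in the change. The median difference over the 93 genes was -0.03 in GFP+ cells, -0.0042 in GFP- cells and -0.03 for the change. With each pool left out in turn these medians ran from -0.05 to 0.0068, from -0.04 to 0.04 and from -0.06 to 0.0078, so none kept its sign. The medians within GFP+ and GFP- cells turned positive without odor pool 1 and without vehicle pool 1, and that of the change without vehicle pool 1 and without odor pool 3. The vehicle and odor differences between fractions are the terms of that change, so they are not compared in any other way here.

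The arrays limit what this shows. In GFP+ cells the 95% interval of the odor difference lay within 0.5 log2 units of 0 for 43 genes and within 1 unit for 90. In GFP- cells the counts were 38 and 90, and for the change of the sort difference 5 and 79. Within each fraction a difference of 1 log2 unit or more lay outside the interval for those 90 genes, while the intervals of most genes reached past 0.5 units.

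The smallest p, all of them near 1 after adjustment, belonged to Atp5e, the small epsilon subunit of the ATP synthase, in both fractions. In GFP+ cells it measured 7.57, 7.21, 7.21 and 7.24 in vehicle and 6.43, 6.59, 6.98 and 7.05 in odor. In GFP- cells it measured 6.70, 6.53, 6.73 and 7.81 in vehicle and 6.18, 6.43, 6.19 and 6.31 in odor. Odor samples lay below vehicle samples without overlap in both fractions, but only 9 of the 16 values were above the floor, and the differences did not pass (-0.55 ± 0.24, adjusted p = 0.9999 in GFP+, and -0.67 ± 0.24, adjusted p = 1 in GFP-). Groups did not overlap, with odor below, for 2 genes in GFP+ cells, Atp5e and Ndufs8 (2.15%, against 1% of all probe sets), and for Atp5e alone in GFP- cells (1.08%, against 0.833%). With odor above, there were 0 genes in either fraction (1.01% and 0.941% of all probe sets).

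Next in GFP+ cells were Cox8c, under the floor (-0.44 ± 0.21), and Ndufs8, a core iron-sulphur subunit of complex I (-0.28 ± 0.17). In GFP- cells they were Cox6a2, under the floor (-0.55 ± 0.24), and the assembly factor Ndufaf7 (0.32 ± 0.17). For the change of the sort difference they were Atp5d, the delta subunit of the ATP synthase (0.49 ± 0.28), the complex I subunit Ndufs4 (-0.43 ± 0.27) and Cox6a2 (0.50 ± 0.34). None passed after adjustment, and the interval for Atp5d ran from -0.09 to 1.07. For Ndufb7, Ndufaf5 and Sdhc, called in odor and not in vehicle, and for Cox5a, Cox7b and Ndufa5, called in vehicle and not in odor, the change did not pass either, so the treatments are not shown to differ.

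**Figure D4:**
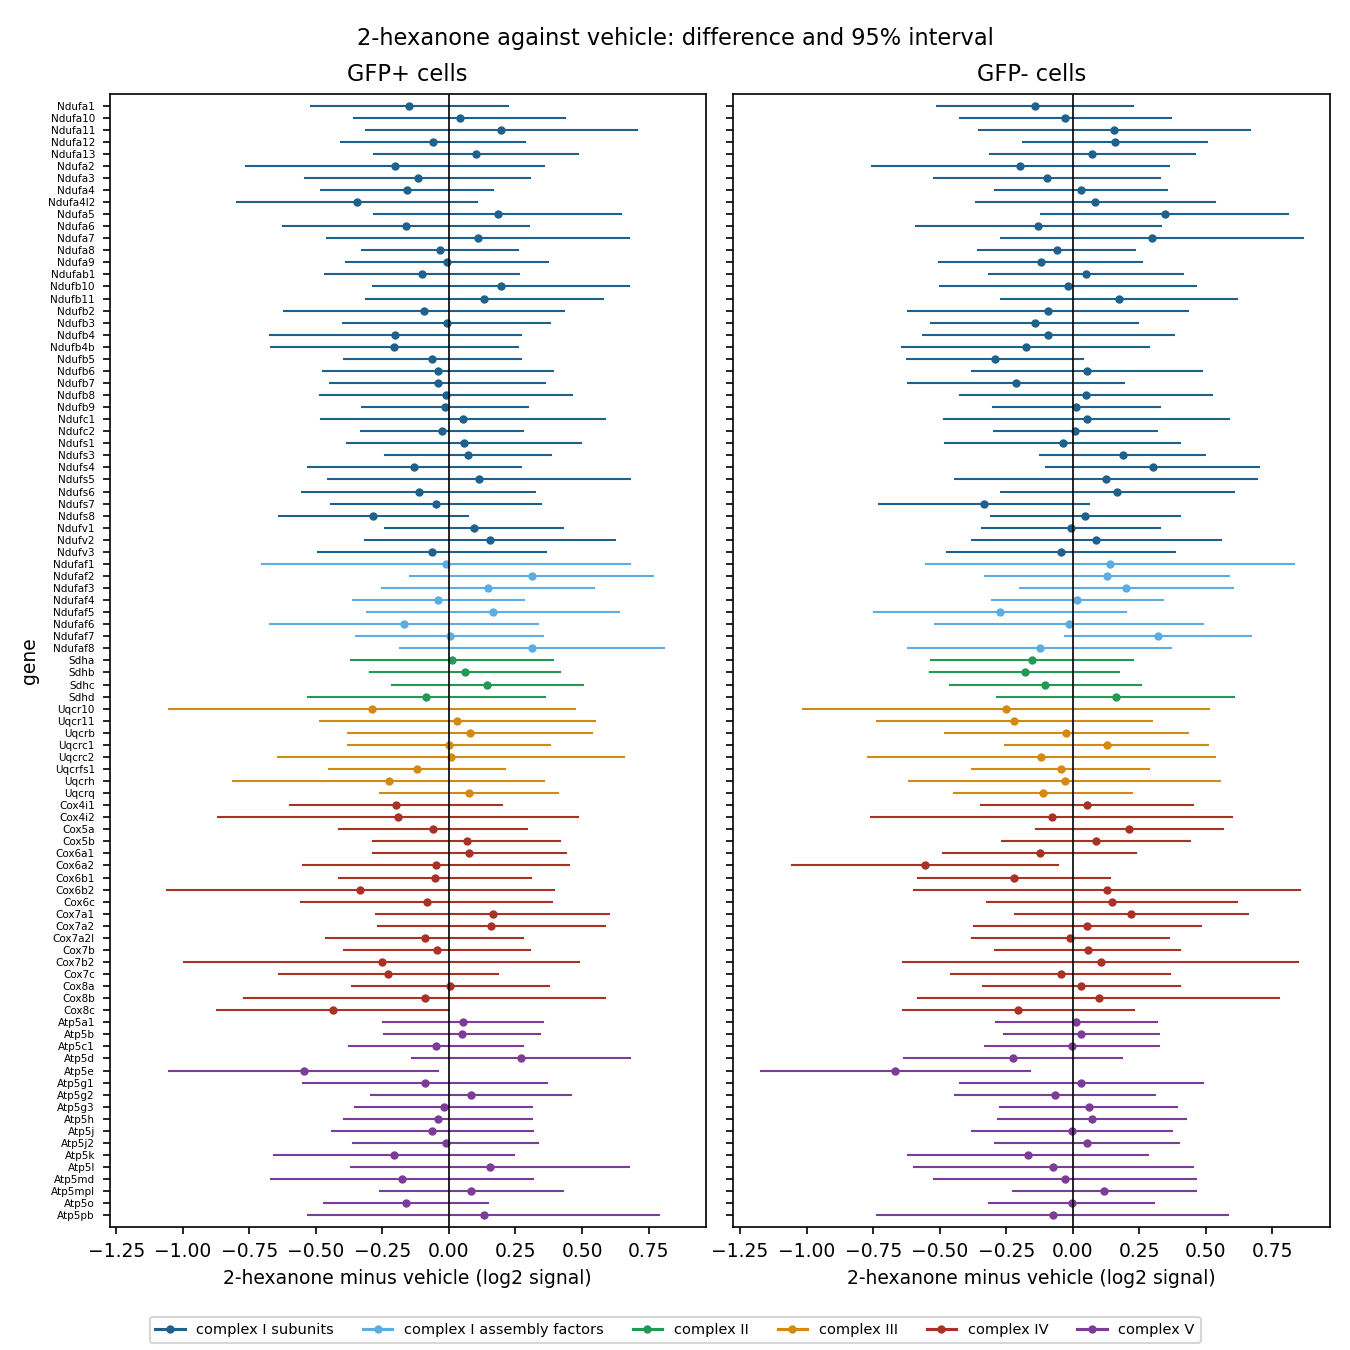
Differences between 2-hexanone and vehicle (log2 signal, horizontal axis) for the 93 genes in GFP+ and in GFP- cells; points are differences of means of 4 pools, lines are 95% intervals and colours are classes. Intervals of nearly all genes include 0, and those of Atp5e lie below 0 in both panels.

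Other genes of mitochondrial energy supply were read from lists, and the counts are for the 8 pools. Of 41 measured assembly factors outside the Ndufaf names, 5 were higher and 0 lower, with a median of 0.25. They were Ecsit, an assembly factor of complex I (0.74 ± 0.14, adjusted p = 0.000508), Sdhaf4 for complex II (0.69), Lyrm7 for complex III (0.53), Atpaf1 for complex V (0.51) and Surf1 for complex IV (0.40). Of 16 electron carriers and nucleotide exchange genes, 3 were higher and 0 lower, with a median of 0.25. They were the creatine kinases Ckb (0.67) and Ckmt1 (0.60), which buffer ATP, and Cyc1, the cytochrome c1 subunit of complex III (0.50), which the symbol rule leaves out.

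Of 76 mitochondrial ribosome genes, 6 were higher and 0 lower, with a median of 0.23, led by Mrpl3 (0.62) and Mrpl46 (0.55). Of 23 genes of the citric acid cycle and pyruvate dehydrogenase, 3 were higher, with a median of 0.17: Fh1, fumarase (0.61), Idh3a, a subunit of isocitrate dehydrogenase (0.50), and Pdp1, a phosphatase that activates pyruvate dehydrogenase (0.49). These counts stand beside 13.4% of all probe sets called higher and 13% called lower. With quantile normalization over all arrays, 16 assembly factors and 24 mitochondrial ribosome genes were higher, where 19.4% of all probe sets were.

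Among 24 regulators of mitochondrial transcription and biogenesis, 3 were higher and 2 lower, with a median of -0.10 that turned to 0.26 with centred arrays. Ppargc1a, a coactivator of mitochondrial biogenesis, measured 13.28, 12.92, 12.84 and 12.47 in vehicle GFP- and 14.09, 13.78, 13.92 and 13.76 in vehicle GFP+ pools. In odor it measured 13.13, 13.12, 13.00 and 12.79 in GFP- and 14.04, 13.91, 14.04 and 13.85 in GFP+ pools. All GFP+ samples were above all GFP- samples, by 1.97-fold over the 8 pools (0.98 ± 0.12, adjusted p = 6.93e-06). The receptor gene Esrrg (-0.73) and the deacetylase gene Sirt1 (-0.49) were lower, and no regulator was called lower with centred arrays.

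Of 21 glycolysis and lactate transport genes, 3 were higher and 8 lower, with a median of 0.04, where 13.4% of all probe sets were called higher and 13% lower. Ldha, the lactate dehydrogenase A chain, measured 9.91, 10.28, 10.34 and 11.58 in vehicle GFP- and 6.99, 6.94, 6.83 and 7.31 in vehicle GFP+ pools, and over the 8 pools it was lower by -3.40 ± 0.23 (adjusted p = 1.41e-09), with 2 of the 4 odor GFP+ samples under the floor. The glucose transporter gene Slc2a3 was under the floor in GFP+ cells and at least 4.49-fold lower there in vehicle. Slc16a1 and Slc16a3, lactate transporters, were also lower, and both were under the floor on all GFP+ arrays. Slc16a7, another member of the family, was higher (0.65), as were Eno2, the neuronal enolase (0.75), and Pfkm (0.38). Of 15 fatty acid oxidation genes 1 was higher and 4 lower, among them Cpt1a, at least 2.77-fold lower in vehicle. Of 14 hypoxia response genes 1 was higher and 4 lower.

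**Figure D5:**
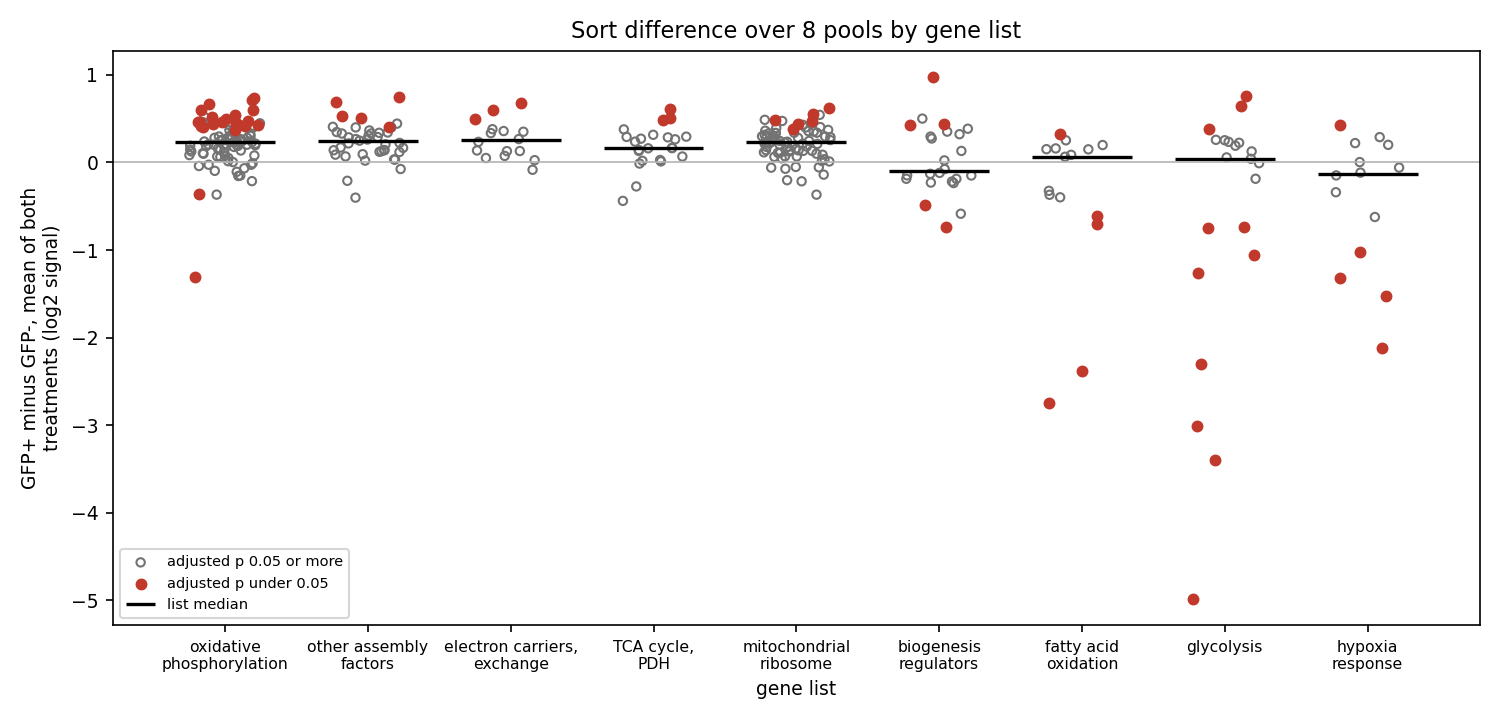
Difference between GFP+ and GFP- cells over the 8 pools (log2 signal) for the genes of each list; points are genes and the median of each list is marked. The 93 oxidative phosphorylation genes lie close to 0 with a median of 0.24, and single glycolysis and fatty acid oxidation genes reach far lower.

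Markers of other cell types also moved with the sort. Of 10 immune markers, 10 were lower in GFP+ cells over the 8 pools, and 8 of them in vehicle and 7 in odor were under the floor on all GFP+ arrays. Their summed level on the log2 scale ran from 17.44 to 19.77 in vehicle GFP- and from 8.34 to 9.86 in vehicle GFP+ samples, and from 18.83 to 19.15 and from 8.78 to 9.31 in odor. Of the immature neuron markers 6 of 8 were lower, with a median difference of -2.51 over the 8 pools. Their sums, set mostly by the brightest genes, lay between 15.74 and 16.23 in GFP- samples and between 15.38 and 15.84 in GFP+ samples.

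Of the sustentacular markers 7 of 8 were lower, with sums between 14.53 and 15.85 in GFP- samples and between 12.07 and 14.59 in GFP+ samples. Of the microvillous markers 6 of 6 were lower, with sums of 13.37 to 14.91 and 10.42 to 10.85. The 6 measured basal and progenitor markers, 3 of them lower, and the 6 gland and respiratory markers, 3 of them lower, were all under the floor in GFP+ cells. In GFP- cells 4 of the 6 in each list were also under the floor on all 4 arrays of each treatment. Both measured erythroid markers were lower, and of 6 endothelial and stromal markers 2 were lower and 1 higher. Of these 6, 5 were under the floor on all 4 GFP- arrays of each treatment, as were 5 in vehicle GFP+ and 6 in odor GFP+. Of 9 mature neuron markers 2 were higher, the channel gene Ano2 (0.66) and the cyclase gene Adcy3 (0.45). The median difference of the 9 was 0.31 over the 8 pools, beside 0.24 for the 93 genes and 0.15 for all probe sets. Their sums, again set mostly by the brightest genes, lay between 21.24 and 21.50 in GFP- samples and between 21.24 and 21.61 in GFP+ samples. What these cell types contribute to the differences of the 93 genes was not tested, and in bulk samples fewer cells of a type and less RNA per cell cannot be told apart.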

How the data were processed

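The authors deposited a log2 signal for each probe set. The submitters' processing notes name Affymetrix Expression Console. The sources used here give neither its version nor the summarisation or any later transformation. Values reach 19.81, above the range of a 16-bit scanner, so a fold is a fold on the deposited scale. Biotinylated cRNA was made from 50 to 100 ng of total RNA, per the labels' protocols.

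Of 28846 rows, 6640 control rows were left out, and the 22206 others were fitted as deposited with limma 3.58.1 in R 4.3.3: 4 group means, all 16 arrays, 12 residual degrees of freedom, Benjamini-Hochberg adjustment over all probe sets and a threshold of 0.05. Of these, 19572 carry 1 gene symbol, 0 several and 2634 none. The median and the counts of the gene set describe it and are no test. A probe set was called above the floor where it exceeded the brightest of 23 antigenomic bins of its array; 66 of the 93 genes also exceeded the 95th percentile of the negative controls on every array. A bound ("at least") sets the brighter group's mean against the floor.

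The number of arrays limits the precision. By the labels, both fractions of a pool come from the same mice. Their deviations correlated at 0.01 to 0.43 (consensus 0.17), so the pool was entered as a block, random or fixed, in alternatives. Other alternatives were quantile normalization, median centring, filters on low probe sets, other variance priors, array weights and leaving out pools. The script was tested on simulated data.

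Named genes were the 2 largest per class and direction in each treatment, the tissue-form families, the complex II genes and the 3 lowest p of each odor comparison. Cox5a and the genes called over the 8 pools were named after their values were seen. The set, the lists and the markers were chosen with earlier results of these data known. The 26 mitochondrially encoded genes on the lists matched no named probe set and were not analysed here. Figures were drawn with matplotlib 3.10.9 in Python 3.11.15.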

Additional observations from a re-analysis of the deposited data

Results flagged for a closer look

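In 10 of 176 groups of 4 arrays examined, 1 array stood far from the other 3, where chance flags about 1 in 20 groups. Atp5e was high in vehicle GFP- pool 4 (7.81, the nearest at 6.73) and in vehicle GFP+ pool 1 (7.57, the nearest at 7.24), which touches the odor comparison of this gene. Ndufs8 was low in vehicle GFP- pool 3 (12.25, the nearest at 12.65) and in odor GFP+ pool 1 (12.24, the nearest at 12.60). In odor GFP- pool 1, Cox6a1 (15.29) and Ndufa4 (14.46) were low and Sdhc was high (10.37). Ndufb2 was high in vehicle GFP- pool 1 (9.58), Sdhb was high in odor GFP- pool 2 (12.70), and Cox4i2, under the floor, was high in vehicle GFP+ pool 4 (4.78). Of the 10 values, 6 belong to the replicate 1 pools that stood apart from the others.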

How the results depend on the processing

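With the pool as a random replicate block, 10 genes were higher in GFP+ cells in vehicle and 8 in odor, against 5 in each, where 8.39% and 7.81% of all probe sets were. With a fixed replicate block, 1 gene was lower over the 8 pools, against 2. Vehicle gave 10 genes higher with quantile normalization over all arrays (8.88% of all probe sets), 3 with it within each fraction (6.31%), 10 without the lowest 40% of probe sets (9.93%), 8 with a trended robust prior (6.26%) and 1 with only the arrays compared (4.27%). In odor, quantile normalization over all arrays gave 9 (8.35%) and only the arrays compared gave 2 (4.77%). Array centring, with 40.5%, 38.4% and 65% of all probe sets higher, gave 64 higher and 0 lower in vehicle (median 0.613), 61 higher in odor (median 0.578), and 81 higher and 1 lower over the 8 pools (median 0.596). The lower call in vehicle fell to 0 without the lowest 40%, with array weights, with only the arrays compared and among genes above the floor. The one in odor fell to 0 without the lowest 40% and above the floor, and over the 8 pools 1 was left in both of these. Without both replicate 1 pools, odor gave 2 higher (3.91%) and a median of 0.161, against 0.126 over all probe sets.

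Leaving out each pool in turn gave 0 to 6 genes higher and 0 to 1 lower in vehicle, 0 to 5 higher and 0 to 1 lower in odor with medians of 0.161 to 0.259, and 12 to 17 higher and 1 to 2 lower over the 8 pools. The median change of the sort difference ran from -0.0568 to 0.00775, the sign turning without vehicle pool 1 and without odor pool 3 (0.00289). The counts of the odor comparisons, 0 throughout, did not move.

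Some genes that did not pass changed sign. In vehicle, centring gave Cox6a1 0.33, Cox6a2 0.0136, Cox7a2l 0.0476, Cox8a 0.349, Cox8b 0.0887, Atp5g1 0.316 and Atp5g2 0.0742, array weights gave Cox8a 0.00403, and leaving out 1 pool gave Cox4i2 -0.205 to 0.65, Cox6a1 -0.06 to 0.00719, Cox8a -0.0474 to 0.0474 and Atp5g1 -0.136 to 0.018. In odor, centring gave Cox8a 0.313, Atp5g1 0.184 and Atp5g2 0.213, quantile normalization gave Ndufa4l2 -0.0237, and leaving out 1 pool gave Cox7b2 -0.0684 to 0.468 and Ndufa4l2 -0.141 to 0.303. Over the 8 pools, centring gave Cox7a2l, which had passed, 0.00177. Of the other values of single genes, 1432 kept their direction and side of the threshold, 140 lost it and 27 gained it. The causes were not tested.

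The vehicle and odor pools share replicate numbers but not mice. Their same-numbered deviations correlated at 0.05 to 0.42 in GFP+ and 0.03 to 0.35 in GFP- cells, and with the replicate number as a block 0 genes were called in the odor comparisons. Signals near the floor limit 18 of the 93 genes.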
